A study of Mus musculus with 2 samples.

Results

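Plin4 and 5 genes known to respond to glucocorticoids, Fkbp5, Sgk1, Tsc22d3, Zbtb16 and Ddit4, were followed in single nuclei of the mouse thalamus after sham operation and after cortical ablation injury, the surgical removal of sensory and motor cortex. They are 6 of the 32285 genes in the count tables, and they were chosen with earlier results of the same tables known, in which Plin4 stood among the highest injury over sham ratios of oligodendrocytes. Their oligodendrocyte ratios are therefore a description of what chose them and carry no test.

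Each group was 1 library. The sham library held nuclei of 4 female C57BL/6J mice that had the operation without removal of cortex, and the injury library held nuclei of 4 female C57BL/6J mice with the cortical ablation. Mice of both groups were operated on at 3 months of age and carried no transgene or drug treatment named in the sources used here. Thalamus of the operated side was taken 21 days later, and equal numbers of nuclei from each mouse were pooled and sorted on a DNA stain. The mice of a pool cannot be told apart, so each group had 1 replicate, no difference had a replicate check, and no p-value was computed.

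Glucocorticoids are steroid hormones of the adrenal cortex that rise with the daily rhythm and with stress. They bind the glucocorticoid receptor (Nr3c1), which is held in the cytoplasm by chaperones, enters the nucleus with the hormone and binds DNA at paired sites. In the brain the mineralocorticoid receptor (Nr3c2) binds the same hormones. Of the 6 genes, Fkbp5 encodes a co-chaperone that lowers the hormone affinity of the receptor, Sgk1 a kinase induced by serum and glucocorticoids, Tsc22d3 the leucine zipper protein GILZ, Zbtb16 the zinc finger repressor PLZF, and Ddit4 the mTOR inhibitor REDD1. Plin4 encodes perilipin 4, a coat protein of lipid droplets.

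In GRCm38 Plin4 (ENSMUSG00000002831) lies on the minus strand at chr17:56100591-56109803, and its last 17 bases overlap Hdgfl2 on the other strand. Fkbp5 (ENSMUSG00000024222) lies on the minus strand at chr17:28399094-28517527 and holds AC154912.5 on its own strand and AC154912.1 on the other, both of which have rows of their own. Sgk1 (ENSMUSG00000019970) lies on the plus strand at chr10:21882184-21999903, and Ddit4 (ENSMUSG00000020108) on the minus strand of the same chromosome at chr10:59949669-59951834. Tsc22d3 (ENSMUSG00000031431) lies on the minus strand at chrX:140539528-140600659, and Zbtb16 (ENSMUSG00000066687) on the minus strand at chr9:48654297-48836222. Whether counting used the strand was not given in the sources used here, so reads of overlapping genes may not be separated.

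The promoters of 4 of the genes are shown because the receptor binds DNA and Fkbp5, Sgk1 and Tsc22d3 are known to answer to it. Plin4 is shown beside them. Each line gives the 250 bases before a RefSeq start site in GRCm38.p6, 5′ to 3′ on the strand of the gene. Capitals mark the letters AGAACA and TGTTCT, the arms of the receptor's paired site, which read as each other on the opposite strand. The Sgk1 window shown is the 1 of 6 with the whole paired site, and the Tsc22d3 window the 1 of 3 with an arm. The Ddit4 window, which held no arm, is not shown.

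Plin4, chr17:56109783-56110032, minus strand: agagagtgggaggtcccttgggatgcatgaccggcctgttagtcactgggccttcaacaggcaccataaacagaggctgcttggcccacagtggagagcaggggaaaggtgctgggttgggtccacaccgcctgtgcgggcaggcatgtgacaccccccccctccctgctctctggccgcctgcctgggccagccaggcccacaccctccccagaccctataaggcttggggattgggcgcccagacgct

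Fkbp5, chr17:28486150-28486399, minus strand: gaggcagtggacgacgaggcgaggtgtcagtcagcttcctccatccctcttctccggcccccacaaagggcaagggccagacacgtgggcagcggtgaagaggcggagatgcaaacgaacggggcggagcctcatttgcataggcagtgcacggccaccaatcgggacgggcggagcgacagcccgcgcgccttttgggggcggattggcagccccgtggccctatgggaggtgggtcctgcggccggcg

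Sgk1, chr10:21993640-21993889, plus strand: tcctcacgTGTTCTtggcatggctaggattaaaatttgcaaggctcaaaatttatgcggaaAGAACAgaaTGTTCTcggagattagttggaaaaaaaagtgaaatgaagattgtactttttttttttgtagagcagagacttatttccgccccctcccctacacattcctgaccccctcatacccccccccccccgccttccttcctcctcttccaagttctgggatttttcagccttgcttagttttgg

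Tsc22d3, chrX:140600523-140600772, minus strand: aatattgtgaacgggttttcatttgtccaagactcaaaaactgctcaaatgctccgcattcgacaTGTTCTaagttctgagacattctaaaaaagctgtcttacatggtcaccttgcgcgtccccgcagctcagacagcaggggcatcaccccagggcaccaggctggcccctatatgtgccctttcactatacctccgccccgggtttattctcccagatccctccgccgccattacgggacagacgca

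Windows of 300 bases, from 250 before to 50 after each start site, were searched on both strands for the whole paired site, AGAACA and TGTTCT with 3 bases of any kind between them. It was present in 3 of 32851 windows of all genes (0.00913%), and 1 of these 3 was the Sgk1 window shown, with its first base 189 bases before the start site. The other 2 windows belong to Acnat2 and Gm35041, which were named after the search. A single arm was present in 19.0% of all windows. It was present in 3 of 6 Sgk1 windows and in 1 of 3 Tsc22d3 windows, and the only window of Plin4, of Fkbp5 and of Ddit4 held none. These are matches of letters in short windows and say nothing of where the receptor binds.

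The tables held 16390 sham and 21828 injury barcodes with 137850696 and 180106314 unique molecular identifiers (UMIs, the count of captured RNA molecules). After filtering, 16373 and 21777 nuclei remained, with a median of 7190 and 6810 UMIs, and 101 barcode sequences occurred in both libraries, of which 37 carried the same class name in both. Nuclei were clustered and named from marker genes. Oligodendrocytes, the myelin-forming cells, numbered 1005 in sham and 2320 in injury, astrocytes 209 and 509, glutamatergic neurons 11697 and 12220, and GABAergic neurons 1956 and 3256. The summed level of 9 oligodendrocyte markers in the oligodendrocyte class was 19110 CPM (counts per 1000000 UMIs) in sham and 18480 in injury, and none of the 9 was at 0. The 8 astrocyte markers summed to 9670 and 10440 CPM in the astrocyte class. For each class, UMIs were summed over nuclei and divided by the UMI total of the class, and each ratio is the log2 of the injury level over the sham level. All intervals are exact at 95% and cover counting error only, so the spread between mice is not in them. Where a count was 0, the limit given is 3 counts of the total. A gene is called higher or lower below only where this interval leaves out 0.

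In oligodendrocytes injury levels of 5 of the 6 genes exceeded sham levels, Plin4 most of all, and those of Tsc22d3 did not. Plin4 counted 18 UMIs in the sham library, 10.2 CPM (interval 6.03 to 16.1), and 234 UMIs in the injury library, 53.9 CPM (47.2 to 61.3). The Plin4 ratio was 2.41 (1.71 to 3.19), a 5.30-fold difference. Plin4 was thus a sparse gene in sham. Since it was chosen on this contrast, the gap between both levels is a description. A Plin4 UMI was found in 1.79% of 1005 sham nuclei (1.07 to 2.82) and in 8.58% of 2320 injury nuclei (7.47 to 9.79), at median depths of 1552 and 1656 UMIs. In oligodendrocyte precursors, a related cell type, 0 of 108 sham nuclei and 0 of 164 injury nuclei had a Plin4 UMI, which by 3 counts of the total allows shares of up to 2.78% and 1.83%, at median depths of 2593 and 2771 UMIs. With each nucleus thinned to 1500 UMIs, which left out 453 sham and 975 injury oligodendrocytes, the shares were 1.45% of 552 and 8.03% of 1345.

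Fkbp5 counted 61 sham UMIs (34.5 CPM, interval 26.4 to 44.3) and 479 injury UMIs (110.3 CPM, 101 to 121) in oligodendrocytes. Its ratio was 1.68 (1.29 to 2.09). Zbtb16 counted 381 UMIs at 215 CPM in sham (194 to 238) and 2219 UMIs at 511 CPM in injury (490.1 to 533), with a ratio of 1.25 (1.09 to 1.41). The share of oligodendrocyte nuclei with a Zbtb16 UMI went from 26.0% in sham to 45.2% in injury. These 2 genes, a feedback co-chaperone and a transcriptional repressor, followed Plin4 in the size of their ratio.

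Sgk1 counted 220 UMIs in sham (124 CPM, 109 to 142) and 964 in injury (222 CPM, 208 to 237), a ratio of 0.84 (0.62 to 1.05). Ddit4 counted 32 UMIs in sham (18.1 CPM, 12.4 to 25.5) and 143 in injury (32.9 CPM, 27.8 to 38.8), a ratio of 0.86 (0.30 to 1.47). Tsc22d3 stood apart from the other 5. Its 328 sham and 745 injury UMIs gave 185 CPM (166 to 207) and 172 CPM (159.5 to 184), and the interval of its ratio of −0.11 (−0.30 to 0.08) held 0. Nuclei with a Tsc22d3 UMI made up 24.0% of sham and 23.9% of injury oligodendrocytes.

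The 6 ratios had a median of 1.06 in oligodendrocytes, where the 9541 genes with at least 50 UMIs had a median of −0.03 and quartiles of −0.25 and 0.19. By size, 5 of the 6 were at least 1.5-fold higher in injury and 0 were 1.5-fold lower. Over all genes tested, 4.64% were that much higher and 5.58% that much lower, and the counting interval lay above 0 for 9.67% and below 0 for 11.2%. Of the 9541 genes, 1 had a larger ratio than Plin4, 11 than Fkbp5, 37 than Zbtb16, 134 than Ddit4 and 145 than Sgk1, whereas 5795 had a larger ratio than Tsc22d3. Because the genes were chosen on this contrast, nothing is read from these counts. Beside these ratios, the median mitochondrial share of oligodendrocyte nuclei was 0.0600% in sham and 0.0995% in injury, and the summed level of 6 neuron markers in them was 1427 and 1747 CPM. The estimated share of free RNA was 6.88% and 7.91%. With that share of free RNA subtracted, the ratios were 2.43 for Plin4, 1.735 for Fkbp5, 1.26 for Zbtb16, 0.89 for Sgk1, 0.89 for Ddit4 and −0.10 for Tsc22d3. The part of the mitochondrial share and of the neuron markers in the ratios was not tested. A summed level cannot tell more nuclei that use a gene from more RNA per nucleus.

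**Figure D1:**
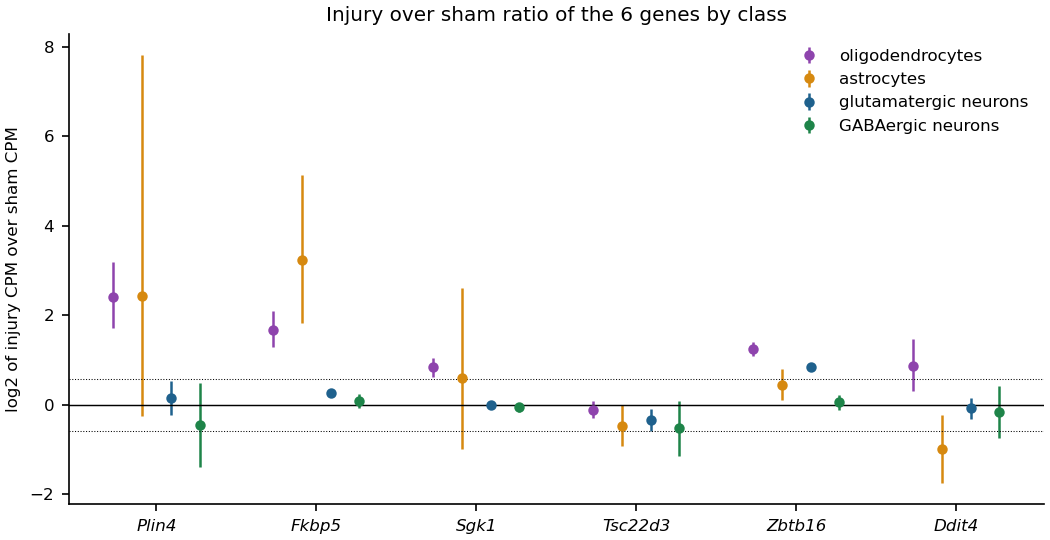
The log2 ratio of injury over sham CPM (vertical axis) is plotted for the 6 genes in 4 classes, with exact 95% counting intervals as bars and dotted lines at 1.5-fold. In oligodendrocytes 5 genes lie above 0 and Tsc22d3, at −0.11, does not; in GABAergic neurons all 6 intervals hold 0.

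The oligodendrocyte class was made of 5 clusters, numbered here as 0, 1, 2, 5 and 6. Clusters 0, 1 and 6 had Aspa, a gene of mature oligodendrocytes, among their 10 leading genes, and clusters 1 and 6 also had Mog. Cluster 2 was led by Anln, with Apod, Hapln2, Trf and the differentiation marker Enpp6 among its 10 leading genes. Cluster 5 was led by 9630013A20Rik, Prom1 and Mbp. Its 10 leading genes also held the oligodendrocyte markers Mobp and Opalin and the differentiation marker Bcas1. Cluster 0 held 490 sham and 835 injury nuclei, and there Plin4 was 14.2 CPM in sham (7.34 to 24.8) and 89.2 CPM in injury (75.5 to 105). In cluster 2, with 234 and 482 nuclei, Plin4 was 6.21 CPM (1.28 to 18.2) and 24.1 CPM (16.0 to 34.9). In cluster 5, with 67 and 134 nuclei, it was at 0 in sham, which by 3 UMIs allows up to 12.3 CPM, and 7.71 CPM (2.10 to 19.7) in injury. The injury intervals of clusters 0, 2 and 5 were in falling order, and those of clusters 0 and 2 did not overlap, while those of clusters 2 and 5 did.

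Fkbp5 levels lay closer together across these clusters. Its injury level was 110 CPM in cluster 0, 106 CPM in cluster 2 and 77.1 CPM in cluster 5, and all 3 intervals overlapped (94.7 to 127, 88.0 to 126 and 55.1 to 105). The Fkbp5 ratio was 1.25 (0.75 to 1.79) in cluster 0, 1.68 (0.92 to 2.53) in cluster 2 and 3.23 (1.29 to 6.33) in cluster 5, where sham held 2 UMIs. Zbtb16 was higher in all 3 clusters, with ratios of 1.07 (0.86 to 1.28), 1.39 (1.06 to 1.72) and 1.95 (1.14 to 2.86). Sgk1 was higher in all 3 as well, at 0.80, 1.16 and 1.09. The interval of Tsc22d3 held 0 in each, at −0.23, 0.30 and 0.04. Plin4 was higher in clusters 0 (2.65, 1.80 to 3.64) and 2 (1.96, 0.26 to 4.32), and Ddit4 in cluster 0 (1.09, 0.20 to 2.09).

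Clusters 1 and 6 were shallow, with median depths of 1055 and 875 UMIs, and each came mostly from 1 library. Cluster 1 held 44 sham and 859 injury nuclei, and cluster 6 held 170 sham and 10 injury nuclei. In cluster 1 Plin4 was at 0 UMIs in sham, which by 3 UMIs allows up to 74.7 CPM. It was at 49 UMIs, 50.7 CPM, in injury, which lies below that limit. In cluster 6 Plin4 was 3 UMIs in each library, 19.15 CPM (3.95 to 55.97) in sham and 237 CPM (48.96 to 694) in injury. Without both clusters the ratios in oligodendrocytes were 2.50 for Plin4, 1.51 for Fkbp5, 1.19 for Zbtb16, 0.92 for Ddit4, 0.86 for Sgk1 and −0.08 for Tsc22d3, each within the interval given above for the whole class.

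**Figure D2:**
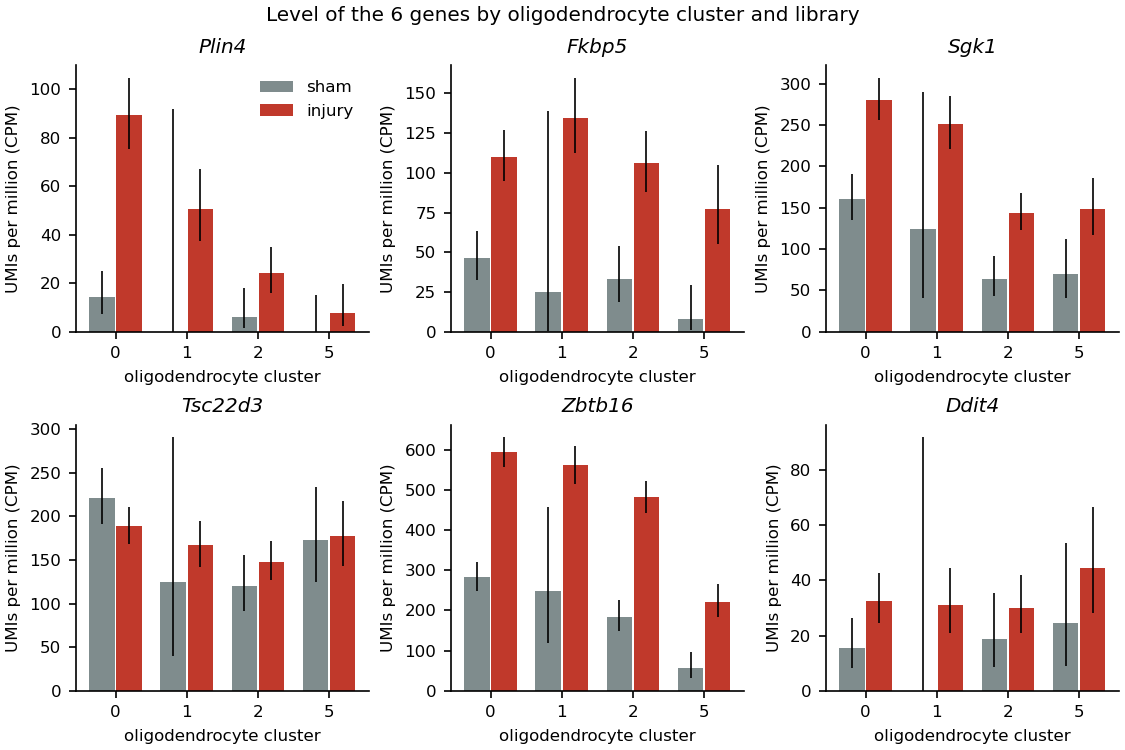
Levels in CPM are plotted for the 6 genes in oligodendrocyte clusters 0, 1, 2 and 5, with sham in grey, injury in red and exact Poisson 95% intervals as bars; cluster 6 is left out, since it held 10 injury nuclei. Plin4 in injury is highest in cluster 0, at 89.2 CPM, and lowest in cluster 5, at 7.71 CPM, while Tsc22d3 bars of both libraries overlap in each cluster.

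Levels of the other genes were also compared between nuclei of the injury library, where 199 oligodendrocytes had a Plin4 UMI and 2121 had none. The median depth was 1931 UMIs in the first and 1635 in the second. Zbtb16 was 839 CPM (751 to 933) in nuclei with Plin4 and 478 CPM (457 to 500) in those without. Sgk1 was 363 CPM (307 to 427) against 208 CPM (194 to 222), and Fkbp5 169 CPM (131 to 215) against 104 CPM (94.5 to 115). For these 3 genes the intervals did not overlap. Those of Tsc22d3, 209 CPM (167 to 259) against 168 CPM (155 to 181), and of Ddit4, 44.8 CPM (26.5 to 70.8) against 31.7 CPM (26.4 to 37.8), did. How many of all genes would separate in such a split, here or within a cluster, was not tested. The part of the greater depth of nuclei with Plin4 was not tested either. The nuclei come from a shared pool and are not replicates, so the split is given as a description.

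Plin4 levels differed between oligodendrocyte clusters 0 and 2, so the same comparison was made within cluster 0, with 122 nuclei that had Plin4 and 713 that had none. Zbtb16 was 874 CPM (766 to 993) against 539.9 CPM (502 to 579.6) and Sgk1 420.1 CPM (346 to 505) against 254 CPM (228 to 282), again without overlap. Fkbp5 was 156 CPM (113 to 211) against 101 CPM (85.3 to 119), where the intervals overlapped. Tsc22d3 was 193 CPM against 188 CPM. Median depths were 2154 and 1895 UMIs. In the sham library only 18 oligodendrocytes had a Plin4 UMI, and they held 3 Fkbp5 UMIs and 15 Zbtb16 UMIs, the latter at 445 CPM (249 to 733) against 211 CPM (189.9 to 234) without Plin4.

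The correlation of Plin4 with each other gene over the 2320 injury oligodendrocytes was weak, from 0.03 for Ddit4 to 0.11 for Zbtb16 (Pearson's r of log-normalized values). These nuclei share a library and their depth, the counts are sparse, and no nucleus held more than 3 Plin4 UMIs, so the correlations are given as a description. The 10 injury nuclei with the most Plin4 held 10.3% of its UMIs, so a few nuclei did not carry the class sum. In astrocytes 17 injury nuclei had a Plin4 UMI, and in them Fkbp5 was 85.6 CPM (27.8 to 199.7) against 82.4 CPM (67.9 to 99.02) in the rest. Tsc22d3 was 171 against 90.4 CPM, Zbtb16 359 against 257 CPM, Ddit4 68.5 against 27.0 CPM and Sgk1 17.1 against 13.1 CPM. The intervals overlapped for each of these genes.

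**Figure D3:**
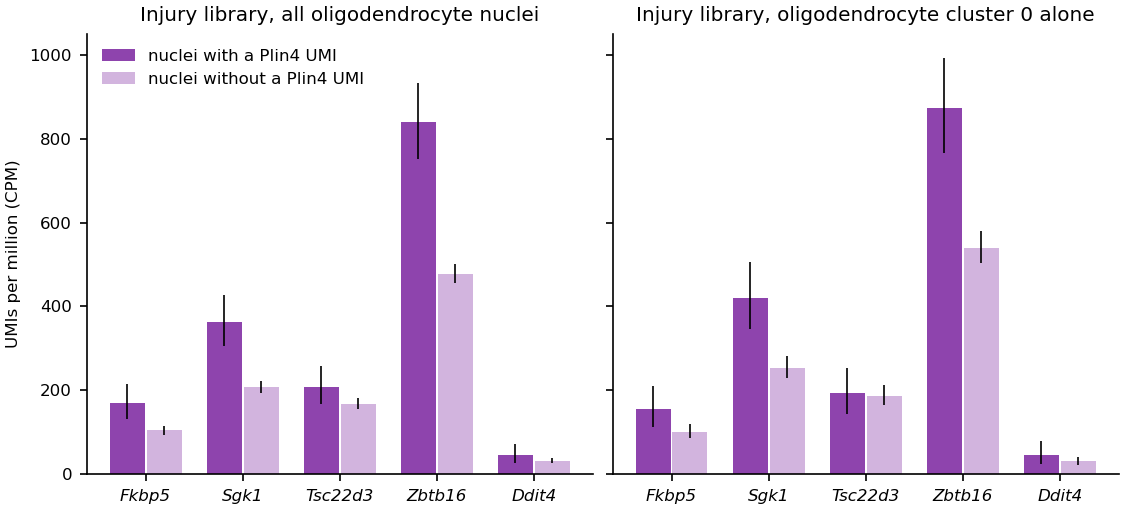
Levels of the other 5 genes in CPM are plotted for injury oligodendrocytes with (dark) and without (light) a Plin4 UMI, over the whole class on the left and within cluster 0 on the right, with exact Poisson 95% intervals as bars. Bars of Zbtb16 and of Sgk1 lie higher with Plin4 and do not overlap in either panel, and Tsc22d3 bars overlap in both. Bars cover counting error only, and how many of all genes would separate in this split was not tested.

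In astrocytes the 6 genes did not go one way. Fkbp5 was higher in injury, Ddit4 and Tsc22d3 were lower, Zbtb16 was slightly higher, and Plin4 and Sgk1 were too sparse to read. Fkbp5 counted 4 UMIs in sham (8.82 CPM, 2.40 to 22.6) and 118 in injury (82.5 CPM, 68.3 to 98.8), a ratio of 3.23 (1.83 to 5.13). Ddit4 counted 26 UMIs in sham (57.3 CPM, 37.4 to 84.0) and 41 in injury (28.7 CPM, 20.6 to 38.9), a ratio of −0.999 (−1.74 to −0.23). Tsc22d3 counted 59 and 134 UMIs, 130 and 93.7 CPM, a ratio of −0.47 (−0.93 to −0.01). Zbtb16 counted 87 and 374 UMIs, 192 and 261 CPM, a ratio of 0.45 (0.11 to 0.80). Plin4 counted 1 UMI in sham (2.20 CPM, 0.0558 to 12.3) and 17 in injury (11.9 CPM, 6.92 to 19.0), and its ratio of 2.43 had an interval of −0.24 to 7.82. Sgk1 counted 4 and 19 UMIs.

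Astrocytes fell into 2 clusters. Cluster 3 held 209 sham and 419 injury nuclei, and cluster 7, led by A2m and Gfap, held 0 sham and 90 injury nuclei. Without cluster 7 the Fkbp5 ratio was 2.60 (1.17 to 4.52) and still left out 0, while the ratios of Ddit4 (−0.71, −1.47 to 0.07), Tsc22d3 (−0.36, −0.83 to 0.12) and Zbtb16 (0.28, −0.08 to 0.65) did not. Of the 4 genes with at least 50 UMIs in astrocytes, 1 was at least 1.5-fold higher and 1 at least 1.5-fold lower, against 10.5% and 6.41% of the 5901 genes tested. The minimum sums both libraries, and the class held 453787 UMIs in sham and 1430444 in injury. The higher gene, Fkbp5, passed it through its 118 injury UMIs beside 4 in sham, so nothing is read from this count. Among all these genes the counting interval lay above 0 for 8.74% and below 0 for 7.27%. The median of all 6 ratios was 0.52, with 0.12 when nuclei were thinned and 1.45 with free RNA subtracted, and that of the 4 with enough UMIs was −0.01, beside a median of 0.00 over all genes tested. Median depth in astrocytes was 1892 UMIs in sham and 2549 in injury, and neuron markers summed to 1849 and 2842 CPM. With nuclei thinned to 1500 UMIs, the ratios were 2.64 for Fkbp5, 0.89 for Zbtb16, −0.65 for Tsc22d3, −0.91 for Ddit4 and −0.91 for Sgk1. The part of depth and of neuron markers in these ratios was not tested beyond this.

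In glutamatergic neurons Zbtb16 was the 1 gene of the 6 that was at least 1.5-fold higher in injury, against 3.56% of 19399 genes tested, and 0 were 1.5-fold lower, against 1.92%. At the depth of this class small ratios leave out 0, and the interval lay above 0 for 24.4% and below 0 for 23.6% of all genes tested. It counted 2025 UMIs in sham (19.2 CPM, 18.4 to 20.1) and 3944 in injury (34.7 CPM, 33.6 to 35.8), a ratio of 0.85 (0.77 to 0.93). Fkbp5 was slightly higher, with 25.9 CPM in sham and 30.9 CPM in injury, a ratio of 0.26 (0.18 to 0.33). Tsc22d3 was lower, at 2.92 and 2.32 CPM and a ratio of −0.33 (−0.58 to −0.09), a call that ended without integration of the libraries (0.05). Sgk1 was 129.7 CPM and 129 CPM, a ratio of −0.01 (−0.04 to 0.02), where the narrow interval covers counting error and not the spread between mice. Ddit4 had a ratio of −0.08 (−0.31 to 0.15). Plin4 was near the limit of detection, with 108 UMIs (1.03 CPM) in sham and 130 UMIs (1.14 CPM) in injury and a ratio of 0.16 (−0.22 to 0.54).

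A Plin4 UMI was found in 0.915% of sham and 1.03% of injury glutamatergic nuclei, although these were far deeper than oligodendrocytes, at 7863 and 7957 UMIs. Thinned to 1500 UMIs, the shares were 0.164% and 0.140%, beside 1.45% and 8.03% in oligodendrocytes. Oligodendrocyte markers in this class gave an estimate of 8.54% and 8.41% free RNA, and with that share subtracted the Plin4 ratio was −0.01. The median of the 6 ratios was 0.07, beside 0.01 over all genes tested.

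The Zbtb16 difference was not even across neurons. Of the 17 glutamatergic clusters, 15 had at least 20 Zbtb16 UMIs, and among these the gene was higher in 11, lower in 1 and undecided in 3. The highest ratio was in cluster 10, led by Adamts9 and Prkcd, where Zbtb16 was 24.6 CPM in sham and 82.8 CPM in injury, a ratio of 1.75 (1.51 to 1.996). Clusters 4, 2 and 3 followed among the larger clusters, at 1.66 (1.10 to 2.25), 1.32 (1.09 to 1.56) and 1.31 (1.04 to 1.579). Among the 15, the lower one was cluster 23, led by Sim1, Oxt and Avp, genes of hypothalamic neurons, with 93.5 CPM in sham and 58.4 CPM in injury, a ratio of −0.68 (−1.19 to −0.16). Clusters 22 and 25, under the minimum of 20 UMIs, also had ratios below 0. These were −1.60 (−3.43 to −0.045) from 14 sham and 5 injury UMIs, and −1.39 (−2.93 to 0.19) from 8 and 9. Averaged over clusters, the ratio of Zbtb16 was 0.48 in place of 0.85.

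Fkbp5 was higher in 6 of 16 glutamatergic clusters and lower in 0, and its highest ratios were 0.99 (0.47 to 1.55) in cluster 19 and 0.87 (0.58 to 1.17) in cluster 10. Cluster 10 was thus among the highest for both genes. Plin4 reached 20 UMIs in 5 clusters and its interval held 0 in all 5. Sgk1 was higher in 1 of 17 clusters and lower in 1. Tsc22d3, called lower over the class, reached 20 UMIs in 10 clusters. It was lower in 1 of them and higher in 0, its interval held 0 in 9, and the median ratio over the 10 was 0.09.

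Clusters 24 and 26 were neurons of the injury library with no sham nucleus and were kept out of the class. Cluster 20 was kept out as well, with 1 marker of another class and 0 of its own among its 10 leading genes. Zbtb16 was 305 CPM in the 279 nuclei of cluster 24 and 399 CPM in the 208 nuclei of cluster 26, each well above the injury level of the glutamatergic class. Cluster 24 was led by genes such as Dkk3 and Neurod6, a marker of cortex or hippocampus neurons, and whether these nuclei came from the thalamus was not tested. Whether the oligodendrocytes and astrocytes of both libraries came from the same regions was not tested either. In these clusters Fkbp5 was 67.7 and 112 CPM and Plin4 2.87 and 5.24 CPM. With the clusters kept out included, the glutamatergic ratio of Zbtb16 was 1.28 and that of Fkbp5 0.35. Clusters 24 and 26 had no sham nuclei to be compared with. Cluster 20 held 195 sham and 191 injury nuclei, with a Zbtb16 ratio of 1.24 (0.81 to 1.68).

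In GABAergic neurons all 6 intervals held 0, and 0 genes were at least 1.5-fold higher or lower, against 4.46% and 2.29% of 15347 genes tested. Over those genes the interval lay above 0 for 15.7% and below 0 for 15.2%. Fkbp5 was 37.0 CPM (33.9 to 40.4) in sham and 39.3 CPM (36.8 to 41.9) in injury, a ratio of 0.08 (−0.07 to 0.24). Zbtb16 was 35.1 CPM (32.1 to 38.4) and 36.4 CPM (34.0 to 38.9), a ratio of 0.05 (−0.11 to 0.22). The interval of Zbtb16 in GABAergic neurons lay wholly below that in glutamatergic neurons (0.77 to 0.93). Sgk1 was 115 and 110 CPM, a ratio of −0.06 (−0.15 to 0.03). Plin4, Tsc22d3 and Ddit4 counted under 100 UMIs in each library, and their ratios were −0.46 (−1.40 to 0.50), −0.52 (−1.13 to 0.09) and −0.16 (−0.74 to 0.43). Cluster 21, with 1 sham and 377 injury nuclei, was kept out of the class and held Zbtb16 at 82.1 CPM and Fkbp5 at 66.7 CPM.

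**Figure D4:**
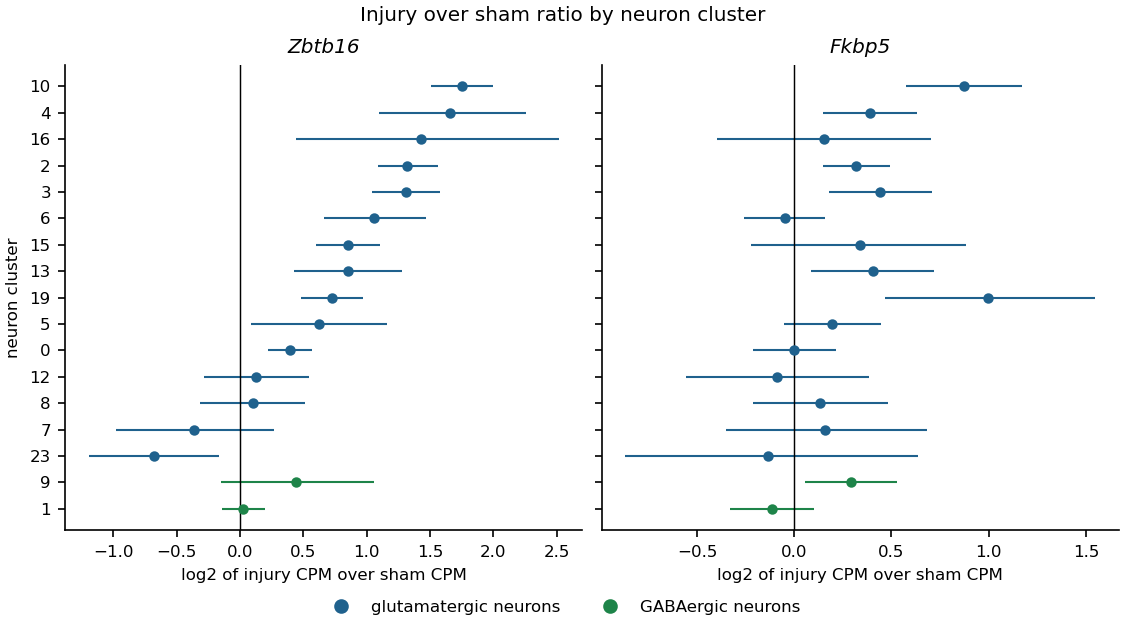
The log2 ratio of injury over sham CPM (horizontal axis) is plotted for Zbtb16 (left) and Fkbp5 (right) in the neuron clusters with at least 20 Zbtb16 UMIs, with exact 95% counting intervals as bars, glutamatergic in blue and GABAergic in green. Zbtb16 reaches 1.75 in cluster 10 and −0.68 in cluster 23, and Fkbp5 reaches 0.99 in cluster 19.

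The level of each gene differed between classes in its own way, in sham as in injury. Among the classes with a Plin4 UMI in the sham library, its level was highest in oligodendrocytes (10.2 CPM), followed by astrocytes (2.20 CPM), whose interval overlapped those of oligodendrocytes and of both neuron classes. Sham precursors and microglia had 0 UMIs, which allows up to 9.72 and 41.5 CPM. In the injury library the order was oligodendrocytes (53.9 CPM), astrocytes (11.9 CPM), microglia (5.36 CPM from 2 UMIs), then glutamatergic (1.14 CPM) and GABAergic neurons (0.990 CPM). The intervals of oligodendrocytes and astrocytes did not overlap, that of microglia held both neuron classes and astrocytes, and the 2 neuron classes overlapped each other. Tsc22d3 was also mainly glial, at 185 CPM in oligodendrocytes and 130 CPM in astrocytes of sham against 2.92 and 3.15 CPM in glutamatergic and GABAergic neurons.

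Sgk1 had another order. In sham it was 185 CPM in precursors (139.9 to 239), 129.7 CPM in glutamatergic neurons, 124 CPM in oligodendrocytes and 115 CPM in GABAergic neurons, but 8.82 CPM in astrocytes (2.40 to 22.6). In injury, oligodendrocytes (222 CPM) and precursors (252 CPM, 210.2 to 300) had the highest levels, with overlapping intervals. Zbtb16 was highest in oligodendrocytes in both libraries, at 215 and 511 CPM, and its interval overlapped that of astrocytes in sham and not in injury. Ddit4 was highest in astrocytes in sham (57.3 CPM) and about level between oligodendrocytes (32.9 CPM) and astrocytes (28.7 CPM) in injury.

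The smaller classes carried few UMIs. In oligodendrocyte precursors, 108 sham and 164 injury nuclei, the interval of each of the 5 genes detected held 0, with Sgk1 nearest to leaving it out (0.45, −0.01 to 0.93). In microglia, 32 sham and 171 injury nuclei, Fkbp5 counted 9 and 94 UMIs, 124 CPM (56.9 to 236) and 252 CPM (204 to 308), a ratio of 1.02 (0.03 to 2.19). Called doublets made up 50% of the sham and 14.0% of the injury microglia. Zbtb16 in microglia counted 0 UMIs in sham, which allows up to 41.5 CPM, and 15 UMIs, 40.2 CPM (22.5 to 66.3), in injury.

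**Figure D5:**
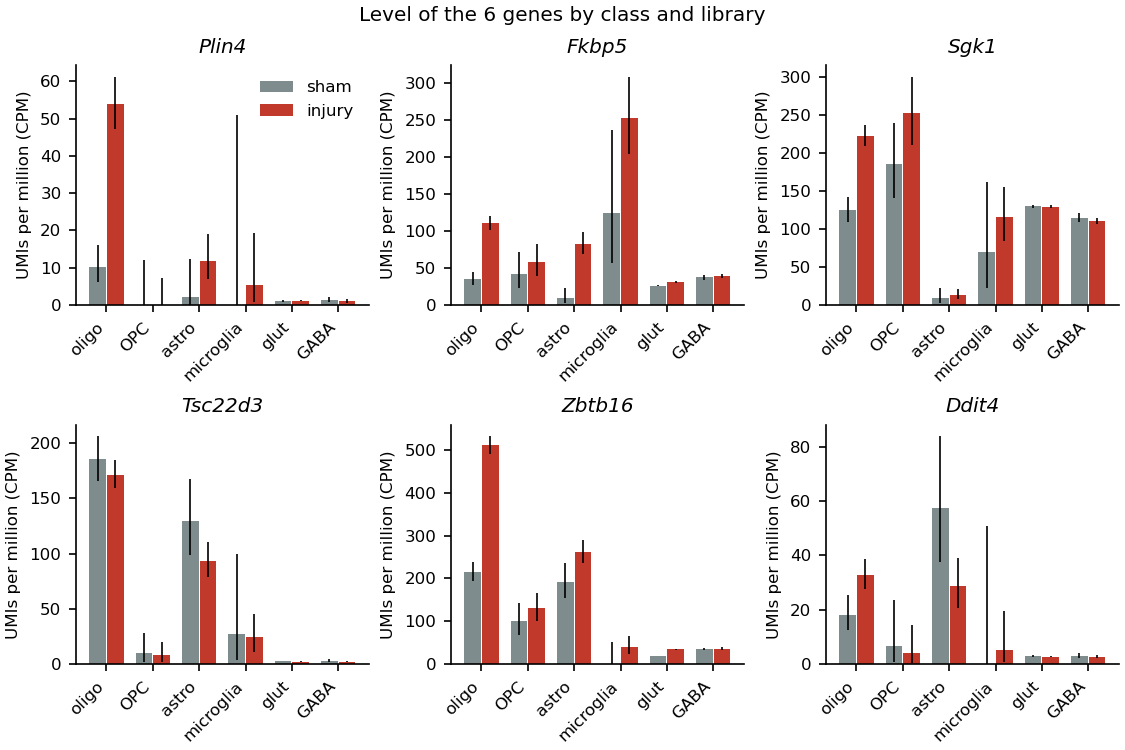
Levels in CPM are plotted for the 6 genes in oligodendrocytes (oligo), precursors (OPC), astrocytes (astro), microglia, glutamatergic (glut) and GABAergic (GABA) neurons, with sham in grey, injury in red and exact Poisson 95% intervals as bars. Plin4 reaches 53.9 CPM in injury oligodendrocytes and stays at about 1 CPM in neurons, whereas Sgk1 in glutamatergic neurons is 129.7 CPM in sham and 129 CPM in injury.

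Of 30 other genes known to be induced by glucocorticoids, 15 had at least 50 UMIs in oligodendrocytes. Their median ratio was 0.35, beside −0.03 over all genes tested, and 8 were higher and 0 lower, against 9.67% and 11.2% of all genes tested. By size, 6 were at least 1.5-fold higher and 0 lower, against 4.64% and 5.58% of all genes tested. The list was chosen with earlier results of these data known, so these counts carry no test. Hif3a, a relative of the hypoxia factors, counted 11 UMIs in sham (6.22 CPM) and 124 in injury (28.6 CPM), a ratio of 2.20 (1.31 to 3.24). Nfkbia, the inhibitor of NF-κB, was 18.7 and 29.95 CPM, a ratio of 0.68 (0.12 to 1.28), and the transcription factor Klf15 23.8 and 36.6 CPM, a ratio of 0.63 (0.13 to 1.15). Rhou, Klf9, Sesn1, Errfi1 and Arrdc2 were higher by less, with ratios from 0.30 to 0.50. The intervals of Per1 (0.20, −0.27 to 0.68) and Mt1 (0.11, −0.40 to 0.64) held 0.

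The median of the same list was nearer to 0 in the other classes. In astrocytes 13 of the 30 genes could be read, with a median of 0.14, 0 higher and 2 lower, Cables1 (−0.63, −0.84 to −0.41) and Sesn1 (−0.47, −0.81 to −0.12). Below the minimum of 50 UMIs, and named after their values were seen, Per1 counted 3 UMIs in sham and 46 in injury astrocytes (2.28, 0.65 to 4.61) and Cebpd 0 and 28. Hif3a in astrocytes was 148 CPM in sham and 187 CPM in injury, a ratio of 0.34 (−0.05 to 0.75). In glutamatergic neurons 27 could be read, with a median of 0.04, 7 higher and 8 lower. The largest ratios there were those of Gjb6 (1.56, 0.91 to 2.26), an astrocyte connexin found at 0.247 and 0.730 CPM, Map3k6 (0.99, 0.73 to 1.26) and Fam107a (0.94, 0.29 to 1.62). In GABAergic neurons 18 could be read, with a median of 0.01, 3 higher and 3 lower, among them Per1 (−0.57), Dusp1 (−0.52) and Nedd9 (0.34). Over all genes tested, 8.74% were higher and 7.27% lower in astrocytes, 24.4% and 23.6% in glutamatergic and 15.7% and 15.2% in GABAergic neurons.

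The intervals of both receptors held 0 in oligodendrocytes, while Nr3c2 was lower in astrocytes. Nr3c1 in oligodendrocytes was 213 CPM in sham and 199 CPM in injury, a ratio of −0.10 (−0.28 to 0.08), and Nr3c2 was 155 and 168 CPM, a ratio of 0.12 (−0.08 to 0.32). In astrocytes Nr3c1 had a ratio of −0.07 (−0.39 to 0.26), and Nr3c2 was lower, at 778 and 589 CPM (−0.40, −0.58 to −0.22). In glutamatergic neurons Nr3c1 was lower by a small step (−0.08, −0.11 to −0.05) and Nr3c2 higher by a small step (0.07, 0.05 to 0.10). The shares of all genes tested that were lower and higher were 7.27% and 8.74% in astrocytes, and 23.6% and 24.4% in glutamatergic neurons. Of the list of 7 receptor and steroid enzyme genes, 3, 3, 6 and 4 could be read in oligodendrocytes, astrocytes, glutamatergic and GABAergic neurons, with median ratios of 0.12, −0.40, 0.06 and 0.02. Hsd11b1, which regenerates active hormone, could be read only in astrocytes among the glial classes, at 16 and 38 UMIs (−0.41, −1.29 to 0.53).

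The median ratio of a list of chaperones, not all of which are known to hold the receptor, was below 0 in each class. Of 11 genes, 10 could be read in oligodendrocytes, with a median of −0.37, 3 lower and 0 higher, against 11.2% and 9.67% of all genes tested. Ppid was 49.8 CPM in sham and 31.8 CPM in injury (−0.65, −1.04 to −0.24), Ptges3 61.1 and 46.5 CPM (−0.39, −0.74 to −0.04), and Hsp90ab1 187 and 146 CPM (−0.36, −0.56 to −0.17). The list had a median of −0.53 in astrocytes, with 1 of 5 lower, against 7.27% of all genes tested. Its medians were −0.28 in glutamatergic neurons, with 9 of 11 lower, and −0.37 in GABAergic neurons, with 8 of 11 lower. Over all genes tested, 23.6% and 15.2% were lower in these neuron classes. By size, 0 and 1 of the 11 were at least 1.5-fold lower there, against 1.92% and 2.29% of all genes tested. In oligodendrocytes 1 of 10 and in astrocytes 2 of 5 were that much lower, against 5.58% and 6.41%. Hsp90b1, the lower gene in astrocytes (−0.67, −1.23 to −0.10), is not among those known to hold the receptor in the cytoplasm. Dnajb1, a heat shock protein, had ratios of −0.42 and −0.71 in glutamatergic and GABAergic neurons.

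Of 17 other lipid droplet genes, 6 could be read in oligodendrocytes, with a median of 0.21, 1 higher and 0 lower. Plin3, the other perilipin with enough UMIs, was 23.2 CPM in sham and 29.7 CPM in injury, a ratio of 0.36 (−0.16 to 0.90), an interval that lay below that of Plin4 (1.71 to 3.19). Plin1, Plin2 and Plin5 held at most 2 UMIs in either library. The higher gene was Dgat1, an enzyme of triglyceride synthesis, at 12.4 and 21.2 CPM (0.77, 0.09 to 1.51). In astrocytes 1 gene could be read, Mgll (0.04, −0.31 to 0.40). In glutamatergic neurons 14 could be read with a median of 0.07, 2 higher and 4 lower, among them G0s2 (−0.73, −1.09 to −0.38), Fitm2 (−0.41, −0.57 to −0.26) and Dgat1 (0.14, 0.07 to 0.21). In GABAergic neurons 10 could be read with a median of 0.00, 2 lower and 1 higher. These were G0s2 (−0.95), Fitm2 (−0.49) and Mgll (0.20, 0.02 to 0.38). Over all genes tested, 9.67% were higher and 11.2% lower in oligodendrocytes, 24.4% and 23.6% in glutamatergic and 15.7% and 15.2% in GABAergic neurons.

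Among 10 genes of the same families, Sgk3 was 124 CPM in sham and 234 CPM in injury oligodendrocytes, a ratio of 0.92 (0.71 to 1.14), whereas Sgk2 was 60.5 and 53.0 CPM, a ratio of −0.19 (−0.53 to 0.15). Tsc22d1 and Tsc22d2 were lower, at −0.65 (−1.04 to −0.24) and −0.33 (−0.56 to −0.09), and the interval of Tsc22d4 (−0.10) held 0. Thus Sgk1 had a relative with a ratio of the same size, and Tsc22d3 had 2 relatives below 0. The median of the 9 family genes read in oligodendrocytes was −0.13, with 2 higher and 2 lower. In astrocytes the median of 6 was −0.06, with 0 higher and 0 lower. In glutamatergic neurons it was −0.07 over 9 genes, with 2 higher and 4 lower, and in GABAergic neurons −0.12 over 8, with 0 higher and 4 lower. Shares higher and lower over all genes tested were 9.67% and 11.2% in oligodendrocytes and 8.74% and 7.27% in astrocytes. They were 24.4% and 23.6% in glutamatergic and 15.7% and 15.2% in GABAergic neurons.

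Genes that report cellular stress, the clock and recent activity were read beside these results. In oligodendrocytes 5 of 16 stress genes could be read, with a median of −0.50, and Vegfa was lower (−0.61, −1.07 to −0.14). Stress genes had medians of −0.43 over 2 genes in astrocytes, −0.23 over 15 in glutamatergic and −0.18 over 11 in GABAergic neurons. Of these, 1, 7 and 3 were lower and 0, 1 and 0 higher. Among 14 clock genes 8 could be read in oligodendrocytes, and 3 were lower and 0 higher: Per3 (46.9 and 18.9 CPM, −1.31, −1.77 to −0.86), Nr1d2 (−0.64, −0.97 to −0.32) and Tef (−0.44, −0.68 to −0.19). In astrocytes 12 could be read, and Per2 (−1.01), Per3 (−0.55), Hlf (−0.78) and Nr1d2 (−0.53) were lower and Npas2 (0.60) was higher. In glutamatergic neurons all 14 could be read, with 8 lower and 4 higher, and in GABAergic neurons all 14, with 0 lower and 3 higher. Of all genes tested, 11.2% were lower and 9.67% higher in oligodendrocytes, and 7.27% and 8.74% in astrocytes. The shares lower and higher were 23.6% and 24.4% in glutamatergic and 15.2% and 15.7% in GABAergic neurons.

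Immediate early genes, which answer to activity and handling within minutes, were mostly lower in injury neurons. In glutamatergic neurons Fos was at 5.42 CPM in sham and at 1.15 CPM in injury (−2.23, −2.52 to −1.96), and 5.95 and 0.645 CPM in GABAergic neurons (−3.20, −4.11 to −2.40). Of 11 such genes, 9 could be read in glutamatergic neurons with 7 lower and 1 higher, and 6 in GABAergic neurons with 5 lower and 0 higher. Over all genes tested, 23.6% were lower and 24.4% higher in glutamatergic neurons, and 15.2% and 15.7% in GABAergic neurons. In oligodendrocytes 2 could be read, Jun (0.03) and Arc (−1.01, −1.86 to −0.15), and in astrocytes 0. The part of the hour of collection and of handling in the ratios of the 6 genes was not tested, and with 1 pool per group both cannot be told apart from the injury.

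Over 11 sums of nuclei, 1 for each class in each library with at least 50 nuclei, the genes whose level was most like that of Plin4 were mt-Nd6 (Pearson's r 0.96), Rbbp5 (0.94), Nmral1 (0.93), Mink1 (0.92) and Rassf8 (0.92) among genes with at least 200 UMIs. For the other 5 genes r was 0.76 for Tsc22d3, 0.66 for Ddit4, 0.64 for Zbtb16, 0.43 for Fkbp5 and −0.16 for Sgk1. The sums come from 2 libraries and differ in cell type and depth as well as in group, so the likeness is a description. Tsc22d3, whose interval held 0 in oligodendrocytes, ranked first of the 5.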

How the data were processed

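Nuclei were sorted from frozen thalamus, and libraries were built with the 10x Genomics Single Cell 3′ chemistry. The authors made the deposited counts, raw UMI counts per gene and barcode with no normalization, with Cell Ranger 6.0.2 against GRCm38 (mm10), as the submitters' processing notes and the study's methods state. Whether intronic reads were counted and which annotation release was used is not given in the sources used here. Of 32285 gene rows, 32235 took a symbol from GENCODE M21.

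Nuclei over 2% mitochondrial UMIs, over 7500 genes or under 200 genes were left out, which is the study's own filter. Doublets were kept and called with Scrublet (scanpy 1.11.5) at 0.8% per 1000 nuclei. Anchors from Seurat 5.3.0 under R 4.3.3 joined both libraries, using the 1987 of 2000 variable genes that are in no list, and nuclei were clustered with 30 principal components at a resolution of 0.5. Neuronal and non-neuronal nuclei were clustered again, and the text numbers their clusters separately. Clusters with over 50% called doublets were set aside. Names came from marker lists and stand for "like" that class, so a difference from the study may come from the naming. Score limits for names were set after seeing the data. A neuron cluster entered a class if both libraries gave it 50 nuclei or more, and clusters led by genes of another class were kept out.

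UMIs were summed per class and scaled to the class total. The study compared nuclei with a Wilcoxon test, which was not used, since nuclei of 1 pool are not replicates. Ratios have exact conditional binomial 95% intervals, levels exact Poisson and shares Clopper-Pearson intervals. Only the ratio intervals were tried on simulated counts, which were drawn with counting error alone. UMIs mark molecules, yet intervals and floors cover counting error only. Genes with at least 50 UMIs over both libraries were compared by class, and a cluster ratio needed 20 UMIs. The free RNA share was estimated from markers of other classes and the whole library's profile. Named genes were the 6 genes in each class, up to 3 genes of a list and class with the largest ratio whose interval left out 0, and the 5 genes most like Plin4. Other genes were named after their values were seen: list genes set beside these as relatives, receptors or counterexamples, and the leading genes of clusters. The 6 genes and the lists were chosen with earlier results of these data known. Alternatives were TMM factors (edgeR 4.0.16), the median of gene ratios, no integration, a resolution of 1.0, no called doublets, means over nuclei or clusters, free RNA subtracted, thinning to 1500 UMIs and no filter. RefSeq promoter windows are those of GRCm38.p6, and a window was given for 5 of the 6 genes.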

Additional observations from a re-analysis of the deposited data

Results flagged for a closer look

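Ddit4 was looked at again because it went in opposite directions in the 2 main glial classes. Its log2 ratio was 0.86 in oligodendrocytes (0.30 to 1.47, with 32 sham and 143 injury UMIs) and −0.999 in astrocytes (−1.74 to −0.23, with 26 and 41 UMIs). The difference between the classes was not tested, and without the astrocyte cluster that held no sham nuclei the astrocyte ratio was −0.71 (−1.47 to 0.07).

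Plin4 was also detected outside the classes compared, in a mixed neuronal cluster that was set aside because 96.9% of its 206 sham and 623 injury nuclei were called doublets. This cluster was led by oligodendrocyte genes such as St18, Mog and Mbp. Plin4 counted 7 UMIs in sham (3.27 CPM) and 53 UMIs in injury (8.25 CPM) there, a ratio of 1.34 (0.19 to 2.72). Zbtb16 in the same nuclei was 52.8 and 102 CPM, a ratio of 0.95 (0.66 to 1.25), while the intervals of Fkbp5 (−0.08, −0.45 to 0.31) and Tsc22d3 (0.09, −0.36 to 0.56) held 0.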

How the results depend on the processing

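Over 297 comparisons of a ratio or a median of the 6 genes with an alternative, 283 stayed within the main interval, 13 left it, and 1 turned the direction of a ratio whose interval had left out 0. A ratio was set against its counting interval. A median has none, so it was set against the medians of the 6 lower and of the 6 upper limits, which can be wide. Of ratios and medians whose interval held 0, 9 changed sign under some alternative, 21 times in all. In oligodendrocytes all 77 stayed within the interval, with ratios of 2.39 to 2.62 for Plin4, 1.51 to 1.96 for Fkbp5, 1.19 to 1.30 for Zbtb16, 0.77 to 0.98 for Sgk1, 0.76 to 0.93 for Ddit4 and −0.22 to −0.04 for Tsc22d3. The called ratio that turned was Tsc22d3 in glutamatergic neurons without integration, 0.048, and the cause was not tested. Thinned to 1500 UMIs, Zbtb16 was 0.89 in astrocytes and 0.74 in glutamatergic neurons, and Tsc22d3 in glutamatergic neurons was −0.66. In thinned GABAergic neurons Fkbp5 was −0.12 and Tsc22d3 1.84, the latter from 2 and 12 UMIs. In glutamatergic neurons the mean over single nuclei gave 0.17 for Fkbp5 and 0.77 for Zbtb16. The mean over clusters gave 0.48 for Zbtb16 there and 0.23 in GABAergic neurons. The median of the 6 genes in astrocytes went from 0.12 when thinned to 1.45 with free RNA subtracted, beside 0.52, and Sgk1 in thinned astrocytes was −0.91. With free RNA subtracted, the median of the 6 genes in GABAergic neurons was −0.23 and Zbtb16 was −0.22 there. Alternatives added after seeing the data were the inclusion of neuron clusters kept out, which gave 0.35 for Fkbp5 and 1.28 for Zbtb16 in glutamatergic and 0.29 for Zbtb16 in GABAergic neurons, and the omission of clusters held by 1 library or led by a differentiation marker, which left all glial ratios within their intervals. Plin4 in astrocytes had no value when thinned or without called doublets, since no sham UMI was left, nor had Sgk1 in astrocytes with free RNA subtracted or Plin4 in thinned GABAergic neurons.

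The share of genes at least 1.5-fold higher depended on the filter. With 20 UMIs it was 7.72%, 14.5%, 5.945% and 7.70% in oligodendrocytes, astrocytes, glutamatergic and GABAergic neurons, with no filter and 0.5 UMI added 8.83%, 10.7%, 11.1% and 14.0%, and at 2-fold 0.870%, 3.22%, 0.732% and 1.06%. The share lower was 8.13%, 11.8%, 2.97% and 3.55% with 20 UMIs, 47.9%, 55.95%, 7.905% and 30.5% with no filter, and 0.587%, 0.678%, 0.227% and 0.319% at 2-fold. Few UMIs limited Plin4 and Sgk1 in astrocytes, and the spread between mice is in none of these values.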
